A study of Mus musculus with 12 samples.

Results

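Enriched mammary epithelium from wild-type mice was profiled by RNA sequencing in 3 libraries, out of 12 in the series, and the members were chosen by their titles, which mark them as controls 1 to 3. The other 9 libraries are mammary tumours of genotype Trp53R245W/+ and were not used here. All 3 control preparations are labelled wild-type, female and C57BL/6J X BALB/cJ F1 hybrid. No age, reproductive state, treatment or way of enriching the epithelium is given in the sources used here. Nor do the labels say whether each preparation came from a separate mouse, so biological and technical spread between libraries cannot be told apart. The libraries form 1 group, so no test was possible between conditions, and every value below is a description of libraries 1, 2 and 3.

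The mammary duct is a bilayer. Inner luminal cells carry the simple keratins and include hormone-sensing cells, which hold the oestrogen and progesterone receptors, and progenitors that give rise to milk-secreting alveolar cells in pregnancy. Outer basal, or myoepithelial, cells carry keratins 5 and 14 with smooth muscle proteins and contract to eject milk, and the ducts lie in a fat pad with fibroblasts, vessels, immune cells and lymph nodes.

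Libraries 1, 2 and 3 held 24353544, 24247566 and 25543872 counts assigned to genes. Levels are given as counts per 1000000 gene counts (CPM), on which scale 3 counts, the limit that a count of 0 allows, came to 0.117 to 0.124 CPM. Apart from ranks by CPM, levels of different genes were compared only after division by exonic length, as CPM per kb. A gene was detected in all 3 libraries in 25105 cases of 31833 detected in any. Library 3 stood apart in its alignments, with 12% not unique against 8.59% and 8.72% in libraries 1 and 2, and 1.62% ambiguous against 1.25% and 1.29%. Small nuclear RNAs took 0.634% of its gene counts, against 0.0818% and 0.0918%. The single gene Gm22513 made up most of this share, with 4453 CPM in library 3 against 4.89 and 5.07 in libraries 1 and 2. The part of these differences in any result below was not tested.

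Most genes had close levels in the 3 libraries. Of 10919 genes averaging at least 10 CPM, 333 (3.05%) had a highest library at least 2-fold the lowest, and the median ratio of highest to lowest was 1.16. The highest library was library 1 for 72 of the 333 (0.659% of all genes tested), library 2 for 150 (1.37%) and library 3 for 111 (1.02%). Without library 2 the count was 118, and without library 3 it was 181, where only 2 libraries enter each ratio. The median coefficient of variation was 10.5% for genes of 10 to 20 CPM, against 5.31% from counting alone, and 6.24% for genes of 100 to 500 CPM, against 1.59%. Over all 10919 genes, libraries 1, 2 and 3 were the highest for 4022, 3908 and 2989 and the lowest for 2573, 4073 and 4273. The counts of list members below stand against these, and those at 2-fold against the 3.05%. Ratios of single genes are given with 95% intervals that cover counting error only.

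The most abundant nuclear protein-coding genes were those of translation and the cytoskeleton. Eef1a1, the elongation factor that brings aminoacyl-tRNA to the ribosome, had 7378 CPM in library 1, 7143 in library 2 and 7010.1 in library 3. Actb, cytoplasmic actin, had 5105 CPM in library 1, 4865 in library 2 and 5536 in library 3. The very long transcripts Ahnak, Macf1 and Dst also ranked among the 12 highest by CPM, and per kb each lay far below Eef1a1, at 192 ± 14.1, 90.3 ± 6.10 and 37.6 ± 2.54 CPM per kb (SD, n = 3). Per kb the order after Eef1a1 (2879 ± 74.7) and Actb (1929 ± 127) was B2m, the light chain of MHC class I (1404 ± 109.5), then the ribosomal proteins Rplp1 and Rps3a1, and Cd74, the invariant chain of MHC class II (859 ± 100.3). Of the 20 highest genes per kb, 10 encode ribosomal proteins. The 98 coding genes whose symbols start with Rpl or Rps and a digit took 3.46%, 3.52% and 3.52% of the counts. That symbol rule leaves out Rplp1 and Rpsa and can admit genes of other function. The 50 most abundant coding genes, here with mitochondrial ones such as mt-Co1 included, held 8.33% ± 0.387 (SD, n = 3) of all counts.

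Besides these household genes, the list of the 30 most abundant by CPM held genes of distinct cell types. Col3a1 and Dcn, a fibrillar collagen and a collagen-binding proteoglycan of fibroblasts, had 3067, 1861 and 2775 CPM and 1681, 969 and 1132 CPM in libraries 1, 2 and 3. Ptprc, the leukocyte tyrosine phosphatase CD45, had 1432, 1305 and 1509.8 CPM. Prlr, the prolactin receptor of luminal cells, had 1238, 1092 and 1666 CPM. Epithelial, stromal and immune genes thus stood side by side among the 30 highest by CPM, which favours long transcripts. Per kb, Col3a1 was rank 74, Dcn 93, Prlr 268 and Ptprc 304 among nuclear coding genes. In bulk RNA, fewer cells of a type and less RNA per cell cannot be told apart.

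The labelled tissue showed its defining markers: all 8 of Krt8, Krt18, Krt5, Krt14, Acta2, Esr1, Pgr and Elf5 were far above 3 counts in each library. Genes of epithelial adhesion and identity differed less than the luminal, basal or hormone-sensing lists, with a median ratio of highest to lowest of 1.28 against 2.00, 1.36 and 1.69. Epcam, the epithelial cell adhesion molecule, had 326 CPM in library 1, 318 in library 2 and 289 in library 3, and Cdh1, E-cadherin, had 168 CPM in library 1, 155 in library 2 and 172 in library 3. St14, a membrane serine protease of epithelia, had 112, 112 and 113 CPM. The 14 genes of the list summed to a near-equal 1159, 1164 and 1109 CPM in libraries 1, 2 and 3. Single genes were less even than the sum: 1 of the 14 passed 2-fold, against 3.05% of all genes, and the median ratio of the list was above the 1.16 of all genes.

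Luminal keratins were abundant, and library 3 was high for them. Krt18 had 503 ± 100.4 CPM per kb and Krt8, its partner in the simple keratin filament, 366 ± 138, ranks 22 and 44 among nuclear coding genes. By CPM, Krt8 had 607 CPM in library 1, 519 in library 2 and 1025 in library 3, and Krt18 had 671 CPM in library 1, 612 in library 2 and 886 in library 3. Krt19, a further luminal keratin, was instead highest in library 1, with 952, 475 and 849 CPM. Of the 9 luminal genes, 7 were highest in library 3 and 7 lowest in library 2, and 5 passed the 2-fold mark. Over all 10919 genes, library 3 was highest for 2989, library 2 was lowest for 4073, and 3.05% passed 2-fold. Among the 5 were Cd24a, a surface glycoprotein used to sort luminal cells, with 230.2, 206 and 447 CPM in libraries 1, 2 and 3, and Prom1, the membrane protein prominin, with 44, 62.2 and 158 CPM. Gata3, a transcription factor needed for luminal identity, differed less, with 62.6, 56.6 and 71.1 CPM.

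Basal keratins ran the other way, highest in library 2. Krt14 had 113 CPM in library 1, 289 in library 2 and 121 in library 3, a ratio of 2.55-fold (95% interval 2.44 to 2.67). Its partner Krt5 had 44.5 CPM in library 1, 90.3 in library 2 and 57.2 in library 3. Libraries 1 and 3 lay close together for Krt14, and library 2 lay apart. The contractile genes of the same cells differed less: Acta2, smooth muscle actin, had 557 CPM in library 1, 634 in library 2 and 567 in library 3, Myh11, smooth muscle myosin, had 437, 595 and 553 CPM, and Cnn1, calponin, had 66.6, 64.7 and 63.5 CPM. Of 15 basal genes averaging at least 10 CPM, 13 were highest in library 2, against 3908 of all 10919. Against 3.05% of all genes, 3 of the 15 passed 2-fold, namely Krt5, Krt14 and Trp63, the p63 transcription factor of basal cells (33.5, 57 and 27 CPM). Acta2 and Myh11 are also made by vessel walls, and the pericyte list was highest in library 2 for 5 of 7 genes, against 3908 of all 10919.

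A wider list of basal keratins and hemidesmosome genes, the anchors of basal cells to the basement membrane, was drawn up after the values were seen. Of its 17 genes averaging at least 10 CPM, 16 were highest in library 2, against 3908 of all 10919, and 9 passed 2-fold, against 3.05%. The list was chosen with high basal keratins in library 2 known, so these counts describe its members and support nothing. Col7a1, the anchoring fibril collagen, had 20.1, 63.3 and 27.8 CPM in libraries 1, 2 and 3. Lama3 and Lamb3, chains of laminin 332, had 75.8, 164 and 104 CPM and 48.2, 101 and 48.9 CPM. Perp, a desmosome protein, went against the list, with 44.1, 40.9 and 31.6 CPM. Epidermal differentiation genes stayed low beside this: filaggrin, Flg, was at 0 in all libraries, Krt1 at 0.164, 0.0825 and 0.0783 CPM and Krt10 at 0.739, 0.619 and 0.900 CPM.

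**Figure D1:**
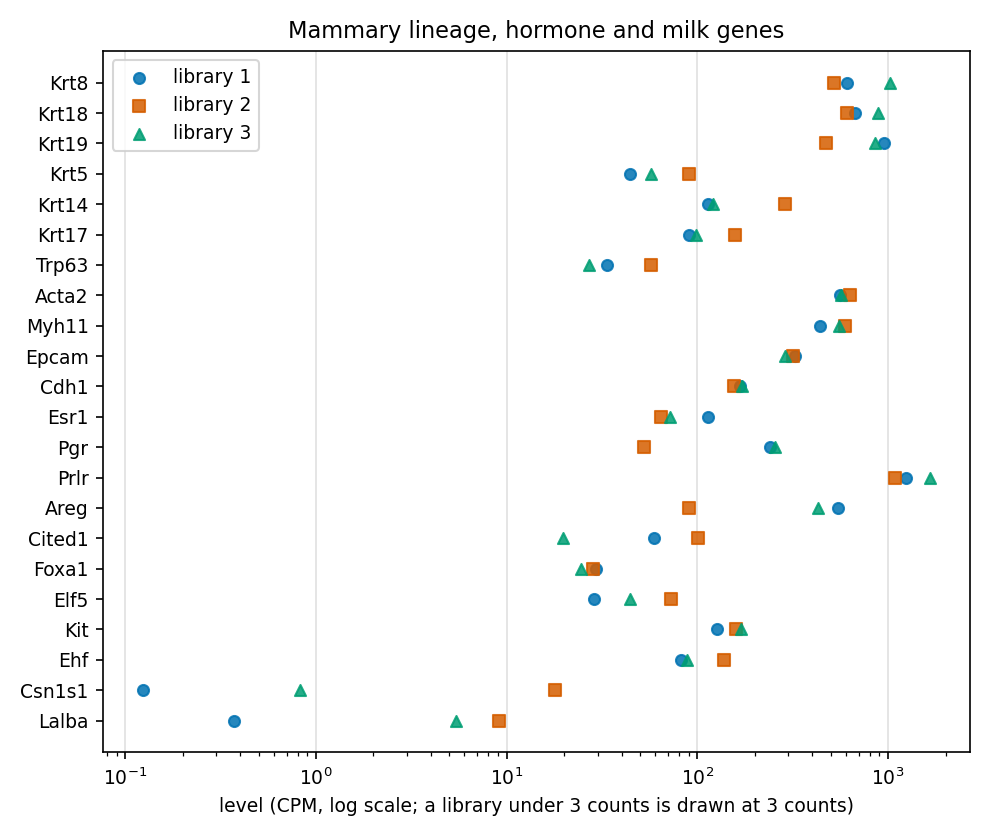
Levels of 22 mammary lineage, hormone and milk genes in libraries 1 (circles), 2 (squares) and 3 (triangles), 1 point per library, in CPM on a log axis. Library 2 is the highest for Krt5, Krt14, Krt17 and Trp63 and the lowest for Pgr and Areg, while Epcam and Cdh1 lie close together in all 3.

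The hormone-sensing genes Pgr and Areg were several-fold lower in library 2 than in the others. Progesterone receptor, Pgr, had 239.9 CPM in library 1, 52.4 in library 2 and 256 in library 3, a ratio of 4.88-fold (95% interval 4.59 to 5.18). Amphiregulin, Areg, the EGF family ligand through which oestrogen acts on ductal growth, had 547 CPM in library 1, 90.6 in library 2 and 427 in library 3, a ratio of 6.04-fold (95% interval 5.77 to 6.32). Library 2 was low for both, with no such gap in Esr1, the oestrogen receptor, which had 113 CPM in library 1, 64.8 in library 2 and 71.6 in library 3 and lay close in libraries 2 and 3. Prlr had 1238 CPM in library 1, 1092 in library 2 and 1666 in library 3, and Foxa1, the factor that opens chromatin for the oestrogen receptor, had 29.5, 28.4 and 24.5 CPM. Cited1, a transcriptional coregulator of these cells, had another order, with 59.1 CPM in library 1, 101 in library 2 and 19.7 in library 3. The list of 12 thus did not move as a block: 10 averaged at least 10 CPM, 7 of these were lowest in library 2, and 4 passed 2-fold. Of all 10919 genes, 4073 were lowest in library 2 and 3.05% passed 2-fold. Tnfsf11, the RANK ligand that progesterone induces, had 6.12, 9.90 and 7.40 CPM, so that library 2, the lowest for Pgr, was the highest for it.

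The promoter of Areg is shown because Areg had the largest spread among the hormone-sensing genes at or above 10 CPM, next to that of Fos, the most abundant of the immediate early genes described below. Both are the 250 bases before the RefSeq start in GRCm38.p6, 5′ to 3′ on the + strand, chr5:91139349-91139598 for Areg and chr12:85473640-85473889 for Fos. Capitals mark the cAMP response element TGACGTCA and the TATA motif TATAAA.
Areg: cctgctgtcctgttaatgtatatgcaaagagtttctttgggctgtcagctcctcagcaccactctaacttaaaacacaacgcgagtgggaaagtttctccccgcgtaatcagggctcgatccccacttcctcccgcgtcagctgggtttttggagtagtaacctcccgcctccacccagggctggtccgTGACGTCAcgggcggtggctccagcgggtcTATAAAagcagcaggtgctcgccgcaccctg
Fos: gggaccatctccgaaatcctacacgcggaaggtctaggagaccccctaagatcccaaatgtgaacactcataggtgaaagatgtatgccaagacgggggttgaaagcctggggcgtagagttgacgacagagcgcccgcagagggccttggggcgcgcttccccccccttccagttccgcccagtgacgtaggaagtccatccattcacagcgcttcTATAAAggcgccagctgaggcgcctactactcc
The Areg window holds 1 copy of TGACGTCA, which begins 61 bases before the start, and TATAAA at 31 bases. The Fos window holds TATAAA at 33 bases and no full TGACGTCA. Searched on both strands, TGACGTCA occurs in 1.55% of 32851 such windows (508) and TATAAA in 12.4% (4063). A match is a description of the letters, not evidence of a bound factor.

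Luminal progenitor and alveolar genes were mostly higher in library 2, with 8 of 11 highest there, against 3908 of all 10919. Of the 11, 2 were lowest in library 2 and 2 passed 2-fold, against 4073 and 3.05% of all genes. Elf5, the factor that drives alveolar fate, had 28.8 CPM in library 1, 72.6 in library 2 and 44.1 in library 3, a ratio of 2.52-fold (95% interval 2.31 to 2.76). Ehf, an ETS factor related to Elf5, had 81.8, 138 and 88.1 CPM in libraries 1, 2 and 3. Kit, the receptor of luminal progenitors, was instead highest in library 3, with 127, 159 and 169 CPM. Aldh1a3, a retinaldehyde dehydrogenase of progenitors, was among those lowest in library 2, with 92.4, 47.3 and 75.7 CPM. The summed level of the 12 genes was 443 ± 59.9 CPM per kb, and 717 with the length of the longest transcript in place of the whole exonic length.

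Several milk protein genes were at or near the detection limit in library 1 and detected well above it in library 2. Csn1s1, the alpha-S1 casein, had 0 counts in library 1, 436 in library 2 and 21 in library 3, so that library 2, at 18.0 CPM, was at least 146-fold higher than library 1 against a floor of 3 counts per library. Csn2, beta-casein, had 0, 129 and 5 counts. Lalba, alpha-lactalbumin, had 0.370 CPM in library 1, 9.11 in library 2 and 5.40 in library 3, and Cel, a lipase secreted into milk, had 11, 243 and 17 counts. Library 2 was the highest for each of these 4 genes. Wap, whey acidic protein, reached 0.0825 CPM in library 2 and 0 in the others, and Mucl2 was at 0 in all. Csn3, kappa-casein, stood apart from the other caseins with 139 CPM in library 1, 135 in library 2 and 156 in library 3, and Xdh and Btn1a1, proteins of the milk fat globule, had 195, 201 and 188 CPM and 31.1, 88.3 and 71.8 CPM. Of 13 genes, 3 reached a mean of 10 CPM and 1 of these, Btn1a1, passed 2-fold, against 3.05% of all genes. The list sum of 81.2 ± 17.3 CPM per kb became 140 with longest transcripts.

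Genes of secreted mucosal defence had no common order. Dmbt1, a scavenger receptor protein of secretions, had 43.8 CPM in library 1, 94.1 in library 2 and 1006 in library 3, a ratio of 23-fold (95% interval 21.6 to 24.5). Chil1, a chitinase-like protein, had 83.1 CPM in library 1, 401 in library 2 and 81.8 in library 3. Wfdc2, a protease inhibitor, had 157 CPM in library 1, 37 in library 2 and 96.7 in library 3. Each of the 3 libraries was thus the highest for 1 of these genes. Ltf, lactoferrin, and Lcn2, lipocalin 2, which both keep iron from bacteria, had 323, 198 and 271 CPM and 128, 238 and 121 CPM in libraries 1, 2 and 3. Of 8 such genes averaging at least 10 CPM, 4 passed 2-fold, against 3.05% of all genes.

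Fibroblast genes were abundant, with a summed 1045 ± 202 CPM per kb against 948 ± 159 for the 16 basal genes. Col1a2, a chain of type I collagen, had 1005, 828 and 911 CPM in libraries 1, 2 and 3, and Col6a3, a chain of type VI collagen, 536, 281 and 499.6 CPM. Pi16, a marker of adventitial fibroblasts, had 100.3, 64.5 and 128 CPM. All 16 genes averaged at least 10 CPM and none reached 2-fold, but 14 were highest in library 1 and 14 lowest in library 2, against 4022 and 4073 of all 10919 genes. Library 2 was thus low for fibroblast genes and high for basal keratins.

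Vessel and nerve genes were detected in every library, with sums of 298 ± 35.9 CPM per kb for the endothelial and 148 ± 21.5 for the Schwann cell list. Pecam1, a junction protein of endothelium, had 446, 471 and 418 CPM and Vwf, von Willebrand factor, 202, 285 and 135 CPM in libraries 1, 2 and 3. Of 14 endothelial genes, 12 were highest in library 2 and 13 lowest in library 3, against 3908 and 4273 of all 10919 genes. Mbp, a protein of myelin, had 189, 176 and 212 CPM, and 6 of 8 Schwann cell genes were highest in library 3, against 2989 of all 10919. Prox1 and Lyve1, markers of lymphatic endothelium, had 12.2, 16.3 and 12.3 CPM and 45, 28.9 and 36.3 CPM.

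Adipocyte and muscle genes gave an uneven picture. Fabp4, a fatty acid carrier of fat cells that endothelium and macrophages also make, had 566 CPM in library 1, 558 in library 2 and 356 in library 3. Adipoq, the adipocyte hormone adiponectin, had only 4.31, 5.82 and 2.94 CPM, and Lep, leptin, was under 1 CPM in each library. No brown adipocyte gene of 7 reached 10 CPM, and Ucp1, the uncoupling protein, had 0.287, 0.124 and 0.117 CPM. Among 16 skeletal muscle genes only Ttn and Neb reached 10 CPM, while Ckm, muscle creatine kinase, had 0.698, 0.289 and 0.235 CPM. Ttn averaged 190 CPM, or 143 without library 1, and passed 2-fold, as did 3.05% of all genes. Neb averaged 15.7 CPM and did not pass. Adipoq, Lep and Ckm were thus low, while 8 of 14 white adipocyte genes, some of them shared with other cells, averaged at least 10 CPM.

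Immune cell genes stood beside the epithelial lineage genes in level. The 12 genes shared by leukocytes summed to 938 ± 85.3 CPM per kb. The 9 luminal genes summed to 1509.6 ± 391, the basal genes to 948 ± 159 and the 14 adhesion genes to 412 ± 10.6. By longest transcripts the sums were 1608 for leukocyte, 1690 for luminal, 1098 for basal and 478 for adhesion genes. None of the 12 leukocyte genes differed 2-fold, against 3.05% of all genes. All 12 were highest in library 3 and 10 were lowest in library 2, against 2989 and 4073 of all 10919 genes. Coro1a, an actin regulator of leukocytes, had 365, 342 and 394 CPM in libraries 1, 2 and 3. Sums of lists depend on which genes each holds, and they give no share of cells.

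**Figure D2:**
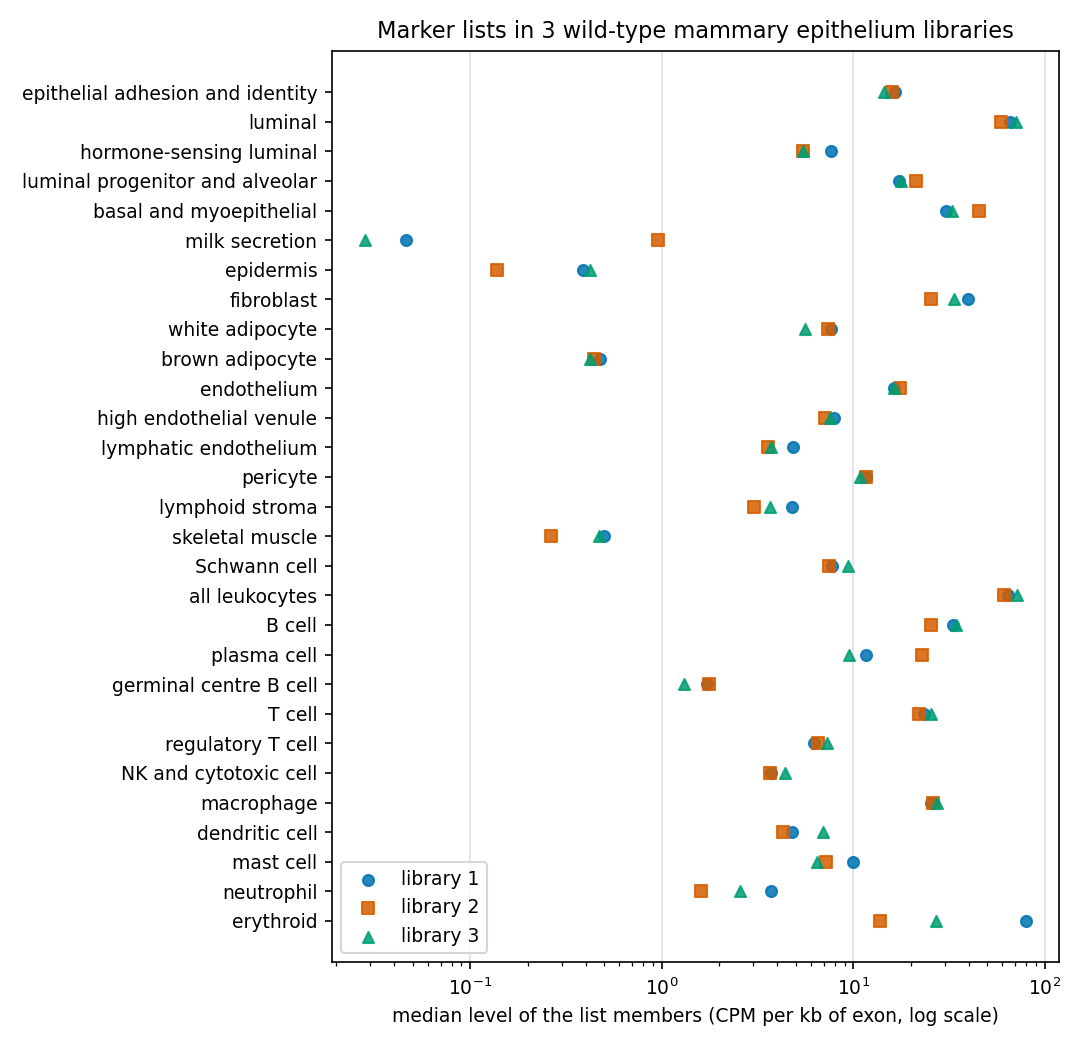
Median level of the genes of 29 marker lists in libraries 1 (circles), 2 (squares) and 3 (triangles), in CPM per kb of exon on a log axis. The luminal and all-leukocyte lists lie about equally far to the right, and the brown adipocyte, skeletal muscle, epidermis and milk lists lie below 1. The erythroid list lies further right than both in library 1 (79.6 against 65.6 and 64.1 CPM per kb) and to their left in libraries 2 and 3.

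B cell genes were the highest of the lymphocyte lists, at 966 ± 144 CPM per kb over 16 genes. Ighm, the constant region of IgM, had 775 CPM in library 1, 584 in library 2 and 719 in library 3, and Ighd, that of IgD, had 272 CPM in library 1, 188 in library 2 and 268 in library 3. Cd79b, a signalling chain of the B cell receptor, had 143, 104 and 156 CPM. Cr2 and Fcer2a, receptors for complement and IgE on mature B cells, had 263, 176 and 282 CPM and 103, 84.2 and 128 CPM. All 16 genes were lowest in library 2, against 4073 of all 10919, and none reached 2-fold, against 3.05%.

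Plasma cell genes had another order, with library 2 high for most. Ighg2c, an IgG constant region, had 24.6 CPM in library 1, 174 in library 2 and 12.6 in library 3, and Ighg1 had 14.2 CPM in library 1, 77.4 in library 2 and 9.20 in library 3. Jchain, which joins secreted IgM and IgA, had 50.6, 74.2 and 34.3 CPM. Of 9 genes averaging at least 10 CPM, 6 were highest in library 2, against 3908 of all 10919, and 5 passed 2-fold, against 3.05%. IgG3, Ighg3, instead was highest in library 3, with 9.49, 17.6 and 29.4 CPM. Constant regions share sequence, so reads may be split among them.

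T cell genes were the steadiest of all the cell lists, with a median ratio of 1.14, near the 1.16 of all genes. None of 20 reached 2-fold, against 3.05% of all genes. Trbc2, a constant region of the T cell receptor beta chain, had 111, 106 and 133 CPM in libraries 1, 2 and 3. Cd4 had 106, 97.8 and 115 CPM, and Cd8a had 74.1, 72.2 and 82.1 CPM. Ccr7, a chemokine receptor of naive lymphocytes, had 134, 176 and 154 CPM. The NK and cytotoxic list had a lower median, 3.92 CPM per kb against 23.6 for the T cell list, and the regulatory T cell list had 6.70. Gzmb, granzyme B, had 3.41, 5.28 and 4.78 CPM, while 4 of 10 cytotoxic genes averaged at least 10 CPM. Foxp3, the factor of regulatory T cells, had 4.97, 5.28 and 6.97 CPM. The other 5 of the 6 regulatory T cell genes averaged at least 10 CPM, with Ikzf2 at a mean of 55.5 and Ctla4 at 29.9.

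Genes known from lymph nodes were present in every library. Glycam1, a mucin made by high endothelial venules and, in lactation, by mammary cells, had 728 CPM in library 1, 955 in library 2 and 1205 in library 3, or 451 ± 112 CPM per kb. Ccl21a, a lymphoid chemokine that guides T cells, had 140.5 CPM in library 1, 97.7 in library 2 and 169.7 in library 3, and Cxcl13, which guides B cells, had 62.6, 33.7 and 78.3 CPM. Marco and Siglec1, receptors known from macrophages of lymphoid sinuses, had 70.0, 71.1 and 82.2 CPM and 152, 144 and 168 CPM. Madcam1, an addressin of mucosal venules, was low at 2.92, 2.02 and 3.95 CPM. The genes above are among the higher ones: 4 of 7 high endothelial venule genes and 6 of 8 lymphoid stroma genes averaged at least 10 CPM. Over all members the medians of these 2 lists were 7.53 and 3.84 CPM per kb. The median over the 10919 genes averaging at least 10 CPM was 9.24. Whether lymph node entered the preparations was not tested. Ccl21a has near-identical copies, and its level is uncertain for that reason.

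Among myeloid cells, the macrophage list was highest, at 837 ± 141 CPM per kb. Lyz2, lysozyme of myeloid cells, had 674 CPM in library 1, 405 in library 2 and 704 in library 3, and C1qa, a chain of complement C1q, had 90.6, 84.7 and 90.2 CPM. Of 8 dendritic cell genes averaging at least 10 CPM, all 8 were highest in library 3, against 2989 of all 10919 genes. Ccl22, a chemokine of mature dendritic cells, was 1 of them (25.2, 39.1 and 51.8 CPM). All 5 mast cell genes averaging at least 10 CPM were highest in library 1, against 4022 of all 10919 genes. The protease Mcpt4 was 1 of them (39.9, 28.7 and 23.5 CPM). Neutrophil genes were low, with S100a8 at 6.61, 0.784 and 1.33 CPM. Red cell genes, a sign of blood, differed most of the cell lists, with a median ratio of 3.49: all 5 erythroid genes averaging at least 10 CPM were at least 2-fold, highest in library 1 and lowest in library 2, and the list summed to 836, 241 and 492 CPM. Of all 10919 genes, 3.05% were at least 2-fold, 4022 were highest in library 1 and 4073 were lowest in library 2. The globin pairs Hba-a1 and Hba-a2, and Hbb-bs and Hbb-bt, are near-identical, so the split within each pair is uncertain.

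Immediate early genes, which cells switch on within minutes of a stimulus, stood at high levels in all libraries. Fos, a subunit of the AP-1 transcription factor, was rank 8 per kb among nuclear coding genes, with 1878 CPM in library 1, 2412 in library 2 and 1542 in library 3. Its partner Jun had 749 CPM in library 1, 896 in library 2 and 668 in library 3, and Atf3, a stress-induced factor, had 661 CPM in library 1, 919.5 in library 2 and 667 in library 3. Egr1, a zinc finger factor of the same response, had 256 CPM in library 1, 385 in library 2 and 233 in library 3. The median level of the 21 genes was 132 CPM per kb, against 9.24 over all 10919 genes. Of the 21, 19 were highest in library 2 and 14 lowest in library 3, against 3908 and 4273 of all 10919 genes. None of the 21 reached 2-fold, against 3.05% of all genes. Socs3, an inhibitor of cytokine signalling, and Btg2, a growth inhibitor, came closest, with ratios of 1.98 and 1.98.

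Heat shock genes were also highest in library 2. This held for all 11, against 3908 of all 10919 genes, and none reached 2-fold, against 3.05%. Hspa1b, an inducible Hsp70, had 189 CPM in library 1, 282 in library 2 and 193 in library 3, and Dnajb1, its cochaperone, had 133 CPM in library 1, 210.1 in library 2 and 137 in library 3. Hspe1, a mitochondrial chaperonin, differed little, with 55.7, 56.2 and 51.5 CPM. Hspa1a and Hspa1b are near-identical copies and their split is uncertain. Library 2, the highest for both groups, was also the highest for the basal keratins.

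Glucocorticoid-induced and clock genes were listed after the values were seen, since several were low in library 3. Tsc22d3, the leucine zipper protein GILZ, had 297 CPM in library 1, 301 in library 2 and 141 in library 3. Mt1, a metallothionein, had 209 CPM in library 1, 261 in library 2 and 93.3 in library 3, and Zbtb16, a zinc finger repressor, had 43.2 CPM in library 1, 62.3 in library 2 and 20.9 in library 3. Libraries 1 and 2 lay close for Tsc22d3, and library 3 lay below both. Of all 10919 genes, 4273 were lowest in library 3, 3908 were highest in library 2 and 3.05% passed 2-fold. Of 16 glucocorticoid-induced genes averaging at least 10 CPM, 15 were lowest in library 3 and 6 passed 2-fold, while 14 were highest in library 2. Since the list was chosen for this pattern, these counts describe its members and support nothing. Nr3c1, the glucocorticoid receptor, had 260.3, 267 and 235 CPM.

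Clock genes followed in part. Per2, a repressor of the clock, had 41.3 CPM in library 1, 67.3 in library 2 and 29.4 in library 3, and Nr1d2, a nuclear receptor of the clock, had 157 CPM in library 1, 166 in library 2 and 96.5 in library 3. Arntl, the activator whose rhythm runs opposite to theirs in mouse tissues, was instead highest in library 3, with 39 CPM in library 1, 37.6 in library 2 and 47.5 in library 3. Of 11 clock genes averaging at least 10 CPM, 8 were lowest in library 3, 10 were highest in library 2 and 2 passed 2-fold. Of all 10919 genes, 4273 were lowest in library 3, 3908 highest in library 2 and 3.05% passed 2-fold. This clock list too was chosen for its values. Per1 is in both lists, so they are not independent. The time of day of collection is not given in the sources used here.

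**Figure D3:**
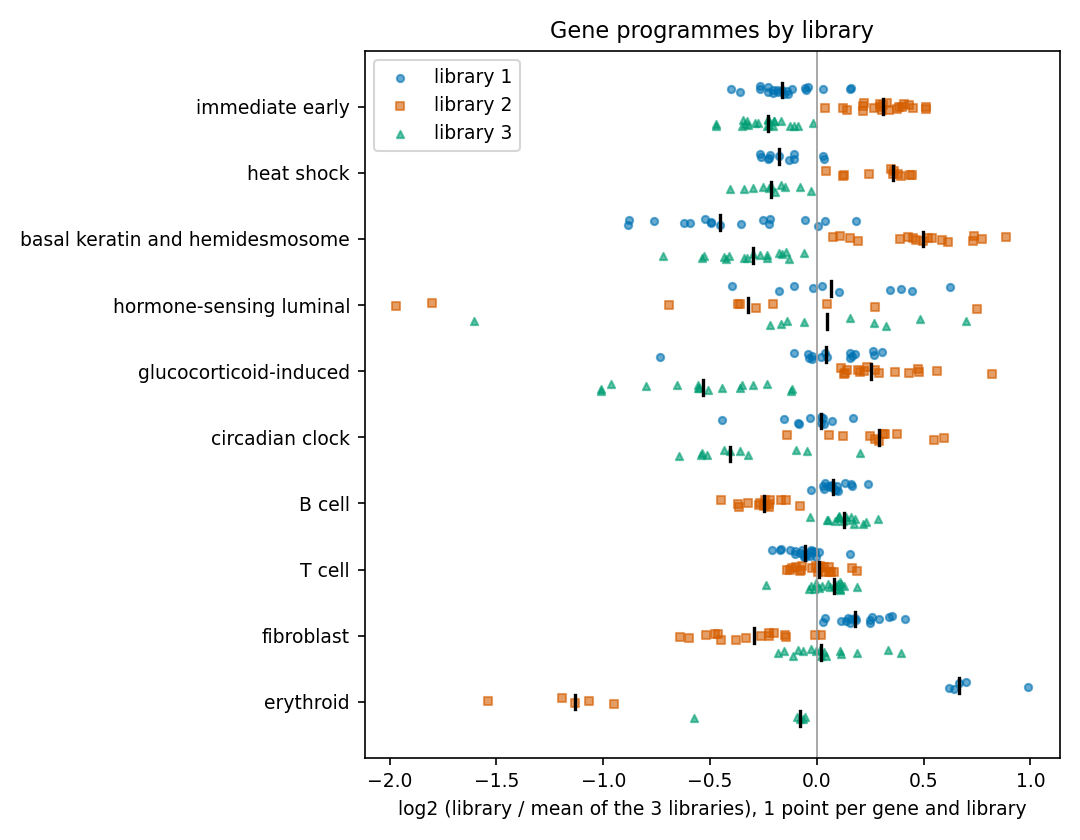
Log2 ratio of each library to the mean of the 3 for every gene averaging at least 10 CPM in 10 lists, 1 point per gene and library, with a black bar at the median. Library 2 (squares) lies to the right for immediate early, heat shock and basal keratin genes and to the left for B cell, fibroblast and erythroid genes, and library 3 (triangles) lies to the left for glucocorticoid-induced and clock genes. The basal keratin, glucocorticoid-induced and clock lists were chosen after the values were seen, so their shifts describe their members and support nothing.

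Proliferation and interferon genes had median ratios of 1.20 and 1.65 between the highest and lowest library. Mki67, the Ki-67 antigen of cycling cells, had 73.7 CPM in library 1, 84 in library 2 and 129 in library 3, and Top2a, topoisomerase II alpha, had 51.9 CPM in library 1, 52 in library 2 and 76.2 in library 3. Library 3 was the highest for both. Of 10 proliferation genes averaging at least 10 CPM, 7 were highest in library 3, against 2989 of all 10919, and none reached 2-fold, against 3.05%. Of 11 interferon response genes averaging at least 10 CPM, 10 were lowest in library 2, against 4073 of all 10919. Of the 11, 1, Oasl2, passed 2-fold, against 3.05% of all genes. Oasl2, a member of the oligoadenylate synthetase family, had 27.4, 14.6 and 29.6 CPM in libraries 1, 2 and 3.

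Of the protein-coding genes named by the size of their ratio, Aoc1, Ptpn5, Defb1 and Muc13 came first. Aoc1, a diamine oxidase that degrades histamine, had 17.7 CPM in library 1, 0.825 in library 2 and 158 in library 3, a ratio of 191-fold (95% interval 124 to 313). Ptpn5, a tyrosine phosphatase, had 7.14 CPM in library 1, 1.44 in library 2 and 44.1 in library 3. Muc13, a membrane mucin, had 110.1 CPM in library 1, 4.12 in library 2 and 49.8 in library 3, and Defb1, an epithelial beta-defensin, had 26.6 CPM in library 1, 2.93 in library 2 and 0.900 in library 3. These genes followed no common order: Aoc1 and Ptpn5 were highest in library 3, and Muc13 and Defb1 in library 1. Further down by ratio, Slc5a5, the sodium-iodide symporter that the lactating gland uses to concentrate iodide, had 29.5 CPM in library 1, 36.8 in library 2 and 209.9 in library 3. The model 5430419D17Rik, named after its values were seen, had 54.4 CPM in library 1, 0.866 in library 2 and 1221 in library 3. It lies on chromosome 7 at 131174402 to 131306451, 52.8 kb after Dmbt1, and both genes were highest in library 3, though library 2 was the lowest for one and library 1 for the other.

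Several abundant genes with large ratios were lowest in library 2. Glul, glutamine synthetase, rank 7 by CPM among nuclear coding genes, had 1836 CPM in library 1, 532 in library 2 and 3585 in library 3, a ratio of 6.74-fold (95% interval 6.62 to 6.87). Gpx3, a secreted glutathione peroxidase, had 955 CPM in library 1, 165 in library 2 and 1355 in library 3. Tgm2, tissue transglutaminase, had 1091 CPM in library 1, 492 in library 2 and 2245 in library 3. Slc12a2, the sodium-potassium-chloride cotransporter, had 1725 CPM in library 1, 819 in library 2 and 1908 in library 3. In all 4 genes library 2 was the lowest and library 3 the highest. Ly6a, a stem cell antigen of hormone-sensing luminal cells and of vessels, named after its values were seen, had 241 CPM in library 1, 60.4 in library 2 and 131 in library 3. For all but Ly6a library 3 exceeded library 1, so these genes did not share the order of Areg, which was highest in library 1.

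Fgg, Hp and Aldh3a1 were among the genes highest in library 1. Fgg, the fibrinogen gamma chain, had 96.2 CPM in library 1, 12 in library 2 and 4.78 in library 3, and Hp, haptoglobin, had 177 CPM in library 1, 44.8 in library 2 and 12.5 in library 3. Aldh3a1, an aldehyde dehydrogenase, had 28.5 CPM in library 1, 1.32 in library 2 and 1.45 in library 3. In Fgg and Hp library 2 lay between the others, and in Aldh3a1 libraries 2 and 3 were close. Serpina1b, an alpha-1-antitrypsin of a multigene family, had 36.5, 5.77 and 23.8 CPM in libraries 1, 2 and 3. The erythroid genes above were highest in library 1 as well, and their part in these values was not tested.

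Fbn2, Col8a1, Lama1 and Arg1 were among the genes highest in library 2. Fbn2, fibrillin 2, had 9.53 CPM in library 1, 84.4 in library 2 and 13.8 in library 3, and Col8a1, a chain of type VIII collagen, had 28.4 CPM in library 1, 148 in library 2 and 18.3 in library 3. Lama1, laminin alpha 1, had 12.4 CPM in library 1, 67.2 in library 2 and 20.5 in library 3. Arg1, arginase 1, had 3.33 CPM in library 1, 52.5 in library 2 and 3.17 in library 3. Libraries 1 and 3 lay within 2-fold of each other for each of these genes. Col4a6, a basement membrane collagen, had another order, with 43 CPM in library 1, 75.3 in library 2 and 2.90 in library 3, low only in library 3. The fibroblast list, by contrast, was lowest in library 2 for 14 of 16 genes.

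**Figure D4:**
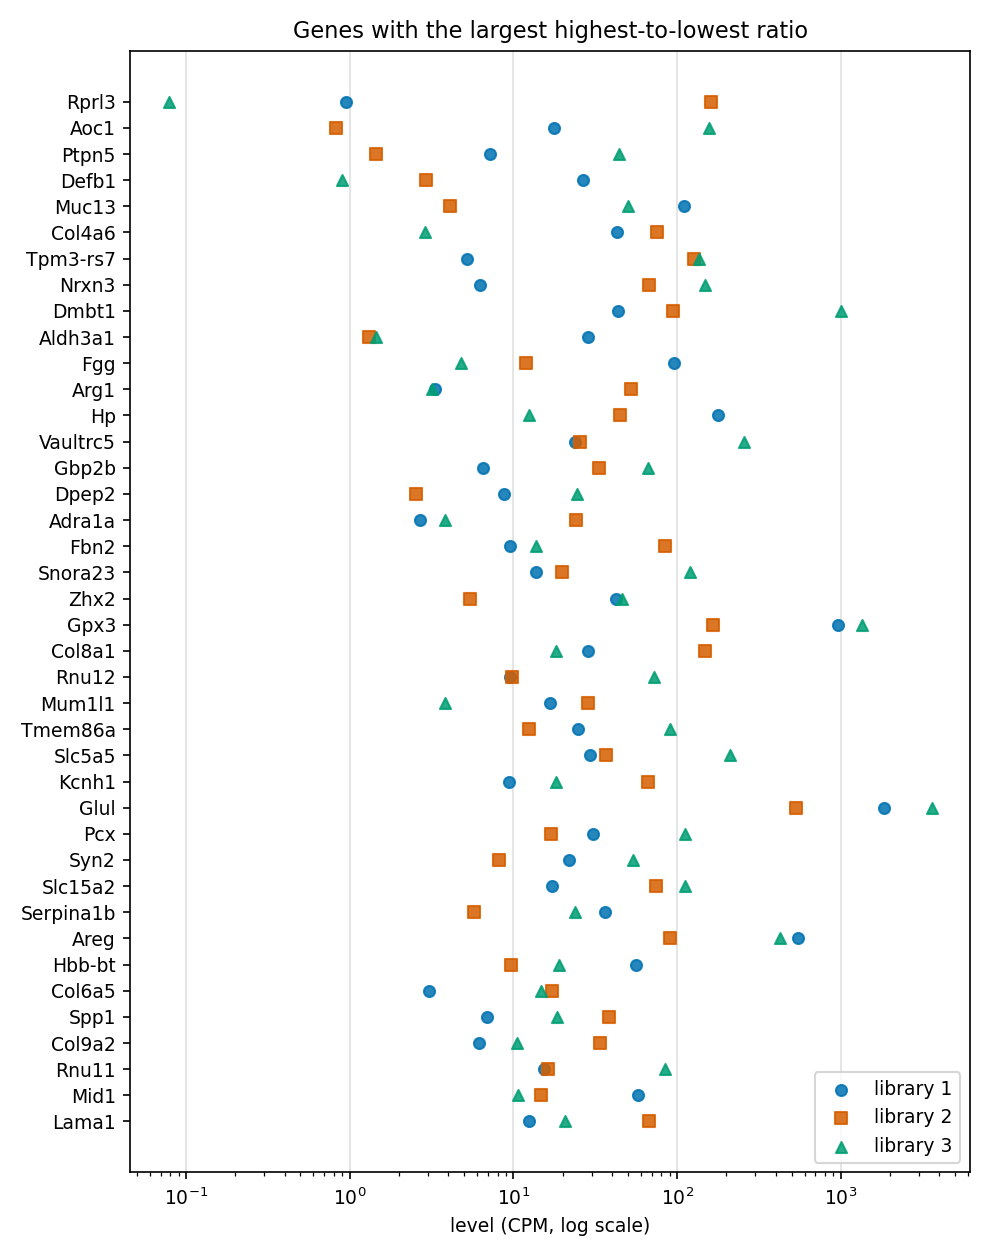
Levels of the 40 named genes with the largest ratio of the highest to the lowest library, in order of that ratio from the top, in CPM on a log axis with 1 point per library (circles 1, squares 2, triangles 3). No library is the outer one throughout: Aoc1, Dmbt1 and Slc5a5 are highest in library 3, Fbn2 and Arg1 in library 2, and Hp and Fgg in library 1.

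Zhx2 differed more than its family members. This gene, a zinc finger and homeobox repressor, had 42.5 CPM in library 1, 5.40 in library 2 and 45.8 in library 3, a ratio of 8.47-fold (95% interval 7.07 to 10.2). Its relatives Zhx1 and Zhx3 had 91.7, 88.1 and 89.6 CPM and 53, 65.1 and 42.3 CPM in libraries 1, 2 and 3. Tpm3-rs7, a tropomyosin 3 related sequence, had 5.21 CPM in library 1, 127 in library 2 and 135 in library 3. Because it resembles Tpm3 itself, its reads may be assigned either way. Nrxn3, a neurexin of synapses, had 6.24 CPM in library 1, 67.1 in library 2 and 149 in library 3, and Gbp2b, an interferon-induced GTPase from a cluster of close copies, had 6.53 CPM in library 1, 33.2 in library 2 and 65.9 in library 3. For Tpm3-rs7, Nrxn3 and Gbp2b library 1 was the lowest.

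Short noncoding RNAs were among the most variable classes. Of 9 small nuclear RNA genes averaging at least 10 CPM, 7 passed 2-fold, and 8 of 16 small nucleolar RNA genes did, against 281 of 10377 coding genes. Gm22513, a small nuclear RNA gene on chromosome 12 named after its values were seen, had 4.89 CPM in library 1, 5.07 in library 2 and 4453 in library 3. Rnu12 and Rnu11, spliceosomal RNAs of the minor class, had 9.49, 9.82 and 71.8 CPM and 15.5, 16.4 and 84.3 CPM in libraries 1, 2 and 3. Vaultrc5, a vault RNA, had 23.9 CPM in library 1, 25.5 in library 2 and 257 in library 3. Library 3 was the highest for each, as for Rn7sk, the RNA that restrains transcription elongation, with 15203 CPM in library 1, 16347 in library 2 and 20929 in library 3. Rprl3, a ribozyme RNA, was the exception, at 0.944 CPM in library 1, 161 in library 2 and 0.0783 in library 3, where library 3 held 2 counts. Some classes of short RNA have many copies in the genome, and library 3 also had the most alignments that were not unique. Those alignments are not in the gene counts, and whether copies affected these levels was not tested.

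Long nuclear RNAs were close in the 3 libraries, with a median ratio of 1.08 over 6 genes averaging at least 10 CPM, and mitochondrial RNAs had one of 1.21 over 8, against 1.16 over all genes. Malat1, a nuclear speckle RNA, had 17860.3 CPM in library 1, 18569.5 in library 2 and 18454 in library 3, and Xist, which silences an X chromosome in female cells, had 1152, 1179.8 and 1183 CPM. The mitochondrial mt-Co1, a subunit of cytochrome oxidase, had 6506 CPM in library 1, 6470.1 in library 2 and 6602 in library 3. Levels across the mitochondrial genome were uneven in the deposited counts: mt-Co2, mt-Co3 and mt-Atp6 were each under 0.5 CPM and mt-Nd4l was at 0 in all libraries. Levels of single mitochondrial genes are therefore uncertain, as are those of ribosomal proteins with many pseudogenes.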

How the data were processed

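Stranded TruSeq libraries were made from total RNA, per the labels' protocols. The authors deposited raw counts per gene with no normalization; FastQC 0.11.8, TopHat2 2.1.1 and HTSeq 0.11.0 were used with the build GRCm38, per the submitters' processing notes. Which annotation and strand setting were used is not given in the sources used here, so overlapping and antisense genes may share counts. Alignments outside genes (41.5%, 41.3% and 39.9% in libraries 1, 2 and 3) were left out of totals. Of 54658 genes, 54106 matched GENCODE M21 by symbol, which gave types and exonic lengths. CPM used total gene counts, and ratio intervals are exact 95% intervals for counting error alone, as reads lacking molecular identifiers need not be independent. In ratios, a library under 3 counts was set to 3. Alternatives used edgeR 4.0.16 and DESeq2 1.42.0 scaling factors in R 4.3.3; other steps used Python 3.11.15, and the script was tested on simulated data. No significance test was run.

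Named genes were the 30 coding nuclear genes highest by CPM and 20 per kb, 8 epithelial markers, the 4 highest members of each of 37 lists and members at 0 in all libraries, the 40 largest ratios, and for each library the 8 most raised and lowered, without predicted models, receptor segments and pseudogenes. Other list members given as examples, and 3 added lists, were chosen after their values were seen. The members and lists were all chosen with earlier results of these data known. A few named genes are not reported here.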

Additional observations from a re-analysis of the deposited data

How the results depend on the processing

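The count of genes at least 2-fold apart was 333. It was 335 with trimmed mean of M values scaling (328 shared), 331 with relative log expression (324 shared), 332 without the 50 most abundant genes in the total, 226 at a mean of at least 20 CPM, 281 for coding genes only and 504 at a mean of at least 5 CPM. Leaving out 1 library gave 118 to 243, by construction over 2 libraries each. With the longest transcript as length, summed levels became 478 CPM per kb for epithelial adhesion, 1690 for luminal and 1098 for basal genes. They became 1470.4 for fibroblasts, 1608 for all leukocytes and 1133 for B cells. Of the 31 lists outside the 6 main ones, 17 moved by more than 1 SD under that length. Levels of the 228 named genes moved by less than 1 SD under trimmed mean scaling. Leaving out 1 library of 3 cannot move a mean by 1 SD, but it moved 41 of the 228 levels by more than 1.5 times: the mean of Rprl3 went from 54.0 to 0.511 CPM and that of Csn1s1 from 6.27 to 0.411 without library 2, that of Aldh3a1 from 10.4 to 1.38 without library 1, and that of Dmbt1 from 381 to 68.9 without library 3. No paired analysis was possible because there is 1 group. Genes under 10 CPM were not ranked, and the sources of non-epithelial RNA cannot be told apart.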
